A study of Bos taurus with 8 samples.

Results

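Mitochondrial ribosomal protein genes were taken as all rows of the count table whose symbol is MRPL or MRPS followed by a number and at most one letter, which gave 78 of 32640 genes. All 78 were found in the RefSeq annotation of the bovine assembly ARS-UCD2.0, and 77 of them were among the 15744 genes that passed the filter on low counts and were tested. The remaining gene, MRPS36, had a count of 0 in all 8 libraries. By the established nomenclature of the proteins, 51 of the genes code for the large subunit, including MRPS30 and MRPS18A despite their symbols, and 26 for the small subunit. The product of MRPS36 is known as a subunit of the 2-oxoglutarate dehydrogenase complex and not of the ribosome.

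Mitochondria carry their own ribosome, which makes only the few proteins encoded in mitochondrial DNA (mtDNA), all of them subunits of the respiratory chain and ATP synthase. Its rRNAs are transcribed inside the organelle, whereas its proteins are made from nuclear genes in the cytosol and imported, so the ribosome draws on both genomes. Some of its proteins have counterparts in bacteria, and others are found only in mitochondria, where they took over places held by rRNA or serve the attachment of the ribosome to the inner membrane.

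The libraries came from bovine embryonic stem cells (bESCs) of 4 lines, named A, C, D and E, derived from blastocysts and recorded as XX. Each line was cultured in NBFR medium and 5% O2 on mouse embryonic fibroblasts (MEF, an inactivated feeder layer), at passage 15 to 17, and in feeder-free conditions on vitronectin, at passage 20 to 22, with 4 libraries per condition. Passage and culture matrix changed together and cannot be told apart, and the feeder-free medium contained Activin A, which the sample records name for both conditions and the methods only for feeder-free culture. Each library is 1 culture of 1 line, so the spread between lines includes that between cultures. The P-values without pairing set the difference between conditions against this spread. Those with pairing set it against how much the difference varied from line to line. Total counts on genes were 44268717 to 54296425 on MEF and 49671478 to 102351560 in feeder-free conditions, where only line D exceeded 51320214. The markers of pluripotent cells POU5F1, SOX2, NANOG, SALL4, LIN28A, LIN28B, DNMT3B and OTX2 were present in every library, with POU5F1 at 1725 to 2341 CPM (counts scaled to a common library total), and DPPA4 was at most at 0.361 CPM. Their sum was 5455 to 6050 CPM on MEF and 4679 to 5299 CPM in feeder-free conditions, and of the 9 markers tested 0 were called without pairing and OTX2 was called lower with it. On the adjusted P-value alone 1 was lower without pairing and 4 with it, against 1.18 and 8.12 percent of all genes tested. The median log2 fold change of the 9 was -0.30, with 7 below 0 and 2 above. In all 4 lines 6 of them were lower, against 20.7 percent of all genes. The quasi-likelihood test of edgeR was run on TMM-scaled counts. A gene was called where its P-value, adjusted by Benjamini-Hochberg, was below 0.05 and it differed by 1.5-fold or more. Since both conditions used the same lines, values from a paired fit, in which the line enters as a replicate block, stand beside the unpaired ones where a call differs.

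Relative to all counts, mitochondrial ribosomal protein mRNA was higher in the feeder-free library than in the MEF library of each of the 4 lines, by a small amount. The summed level of the 78 genes was 4093 CPM in line A on MEF, 3556 in line C, 3334 in line D and 4056 in line E, and 4881, 3818, 4021 and 4704 CPM in the feeder-free libraries of the same lines. Line by line the feeder-free sum was 1.19, 1.07, 1.21 and 1.16 times the MEF sum, but the groups overlapped, because lines A and E on MEF lay above lines C and D in feeder-free conditions. The means were 3759 ± 375 CPM on MEF and 4356 ± 516 CPM in feeder-free conditions (SD, n = 4 each). In bulk RNA, more cells of a type and more RNA per cell cannot be told apart.

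**Figure D1:**
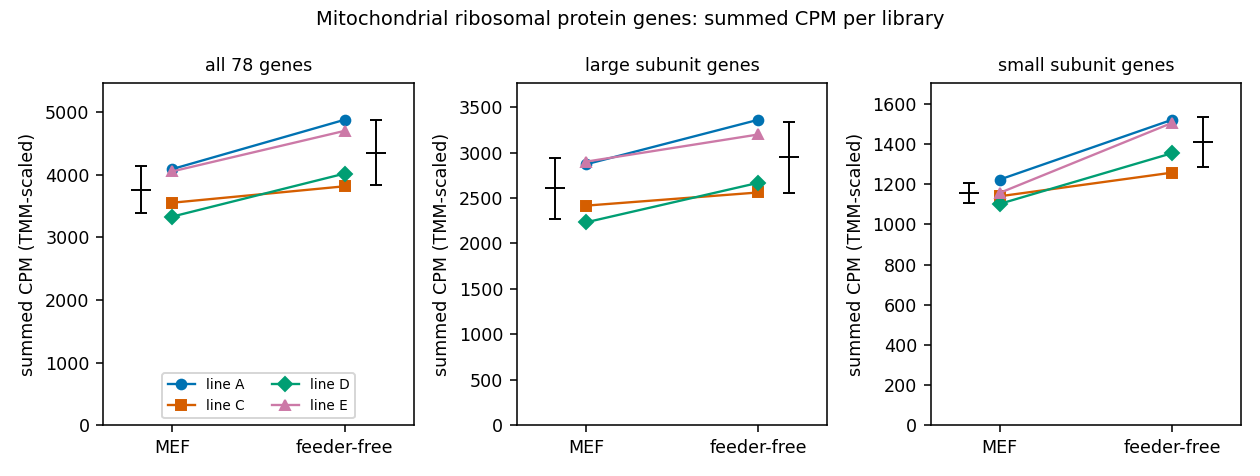
Summed CPM (TMM-scaled, vertical axes from 0) of all 78 genes, of the large subunit genes and of the small subunit genes, on MEF and in feeder-free conditions; a line joins the libraries of one bESC line, and the black marks give the mean ± SD of 4 libraries. Every line goes up in each panel, and lines A and E lie above C and D in the first panel in both conditions.

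The difference ran through most of the genes. Among the 77 tested, 68 fitted log2 fold changes were positive and 9 negative. Their median was 0.29 (quartiles 0.16 and 0.43), whereas over all genes tested it was 0.01. The genes were higher in all 4 lines in 46 cases (59.7 percent of those tested), against 20.2 percent of all genes tested, and lower in all 4 lines in 2 cases, against 20.7 percent. The 4 feeder-free libraries all lay above the 4 MEF libraries for 17 genes (22.1 percent, against 6.21 percent of all genes) and all below them for 1 (against 8.36 percent). By line, the median log2 ratio was 0.29 in A, 0.14 in C, 0.34 in D and 0.39 in E, and 66, 58, 69 and 63 of the 77 genes were higher in feeder-free conditions. Line C thus had the smallest difference.

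Few of these differences passed the test gene by gene. In the unpaired fit 3 genes were called higher (3.90 percent of the members, against 0.724 percent of all genes tested) and 0 lower (against 1.00 percent), while 25 (32.5 percent, against 21.6 percent of all genes) had an unadjusted P-value under 0.05. On the adjusted P-value alone 5 were higher (against 0.749 percent of all genes) and 0 lower (against 1.18 percent). With the replicate block 7 were called higher (9.09 percent, against 5.52 percent) and 0 lower (against 4.53 percent), and on the adjusted P-value alone 19 were higher (24.7 percent, against 7.67 percent) and 1 lower (against 8.12 percent). The 3 genes of the unpaired fit were among the 7 of the paired one. These 3 calls needed nearly all libraries. When any 1 MEF library was left out, or the feeder-free one of line C, D or E, 0 of the genes were called, whereas all 3 were called when feeder-free line A was left out. Over all genes tested, 114 were called higher with all libraries, 0 or 1 in each of the former settings and 259 in the latter. DESeq2 called 5 of the members and 695 of all genes higher, and limma-voom 2 and 79.

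**Figure D2:**
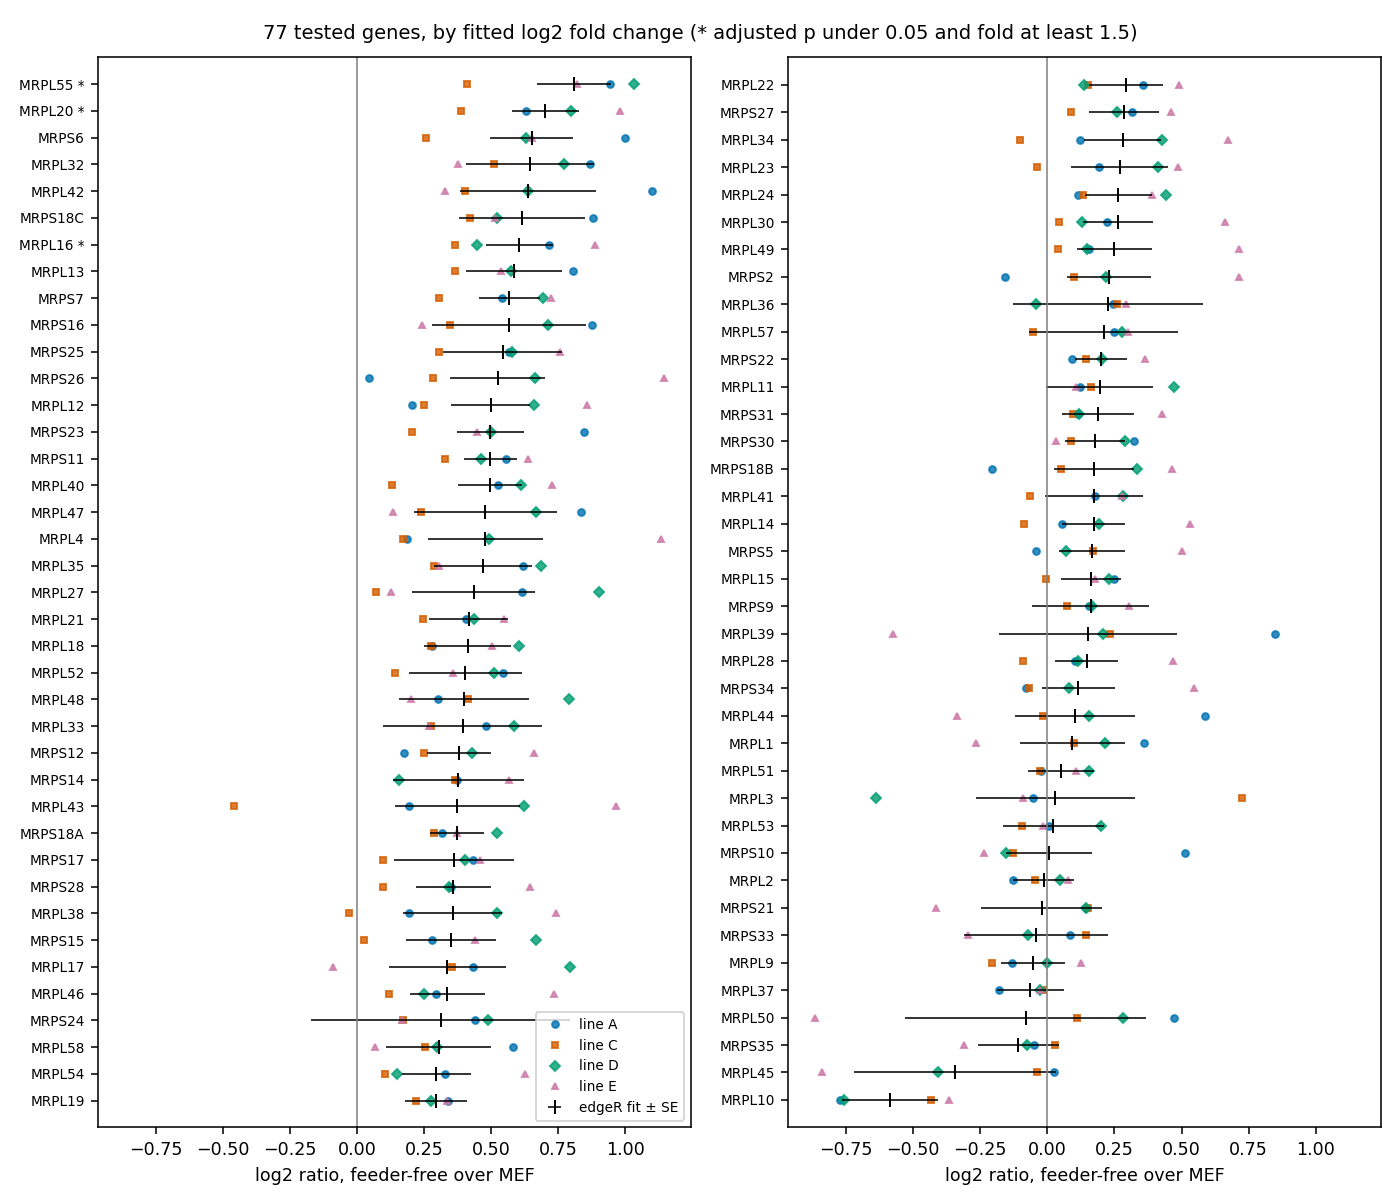
Log2 ratio of feeder-free over MEF for the 77 tested genes, ordered by the fitted value; coloured points are the 4 lines and black marks the edgeR estimate ± SE. There are 68 estimates right of 0 and 9 left of it, and MRPL10, the lowest, has all 4 lines left of 0.

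The 3 genes called in the unpaired fit all code for large subunit proteins with bacterial counterparts. MRPL55, at chromosome 7 from 2993262 to 2997183, was at 29.2, 29.7, 24.1 and 28.4 CPM in lines A, C, D and E on MEF and at 56.1, 39.5, 49.3 and 50.1 CPM in feeder-free conditions. The lowest feeder-free library lay above the highest MEF library, and the difference came to 1.75-fold (log2 0.81 ± 0.14 SE, edgeR adjusted p = 0.0331, n = 4 per condition). MRPL20, on chromosome 16 from 51132332 to 51135371, codes for a protein that in bacteria binds the rRNA early in assembly of the large subunit. It was at 42.2, 40.6, 34.7 and 35.4 CPM on MEF and at 65.3, 53.1, 60.4 and 69.7 CPM in feeder-free conditions, without overlap (1.63-fold, log2 0.70 ± 0.12 SE, edgeR adjusted p = 0.0373, n = 4). MRPL16, on chromosome 15 from 83015485 to 83019729, codes for a protein near the site where tRNAs enter. Its values were 34.3, 40.1, 43.4 and 36.3 CPM on MEF and 56.3, 51.6, 59.2 and 67.2 CPM in feeder-free conditions, again without overlap (1.52-fold, log2 0.60 ± 0.13 SE, edgeR adjusted p = 0.0486, n = 4). All 3 were higher in 4 of 4 lines, and line C had the smallest ratio for each.

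The small subunit genes MRPS7 and MRPS11 passed on the adjusted P-value but not on the fold change, and are named here after their values were seen. MRPS7, whose bacterial counterpart organizes the head of the small subunit, was at 47.7, 44.5, 40.3 and 40.9 CPM on MEF and at 69.3, 55.1, 65.3 and 67.4 CPM in feeder-free conditions. MRPS11, whose product lies on the platform of the small subunit, was at 44.4, 44.7, 43.9 and 40.0 CPM on MEF and at 65.3, 56.1, 60.5 and 62.3 CPM in feeder-free conditions. For both genes the feeder-free libraries lay above all MEF libraries. The log2 fold change was 0.57 ± 0.11 for MRPS7 (SE, edgeR adjusted p = 0.0463), which overlaps MIF4GD in the annotation (-0.23), and 0.50 ± 0.10 for MRPS11 (SE, edgeR adjusted p = 0.0443).

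The replicate block added MRPS6, MRPL32, MRPL42 and MRPS18C to the genes called higher. None of these 4 was called when line A or line D was left out of the paired fit, and all 4 were called without line E. MRPS6, on chromosome 1, was at 36.2, 39.5, 32.7 and 40.3 CPM on MEF and at 72.2, 47.3, 50.6 and 63.4 CPM in feeder-free conditions, so its groups did not overlap. Its paired log2 fold change was 0.63 ± 0.14 (SE, edgeR adjusted p = 0.0151), against 0.0594 for the adjusted p of the unpaired fit. In MRPL32, MRPL42 and MRPS18C the groups overlapped. MRPL32 codes for a protein that a protease of the inner membrane trims before it joins the ribosome, and was at 23.9, 15.9, 15.8 and 24.3 CPM on MEF and at 43.6, 22.6, 26.9 and 31.6 CPM in feeder-free conditions. MRPL42, of a large subunit protein found only in mitochondria, was at 20.4, 18.2, 14.3 and 26.2 CPM on MEF and at 43.7, 24.1, 22.2 and 32.9 CPM in feeder-free conditions. MRPS18C was at 19.1, 15.0, 12.6 and 18.3 CPM on MEF and at 35.1, 20.0, 18.1 and 26.2 CPM in feeder-free conditions. Line A had the highest feeder-free value of all of them and of MRPS6, and the ratio was above 1 in every line. For MRPL32, MRPL42 and MRPS18C the edgeR adjusted p = 0.0139, 0.0255 and 0.0200 with the block (log2 0.63, 0.62 and 0.59), and 0.158, 0.186 and 0.167 without it. MRPS18C lay only just above the fold change threshold. In the paired fit without line D, edgeR adjusted p = 0.0635 for MRPS6, 0.0807 for MRPL32, 0.0965 for MRPL42 and 0.0775 for MRPS18C, whereas MRPL55 (0.0352), MRPL20 (0.0462) and MRPL16 (0.0466) were called. MRPL55 and MRPL20 were also called without line A, C or E. MRPL16 was called without line C, but fell short of the fold change threshold without line A (log2 0.56) or line E (log2 0.52).

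**Figure D3:**
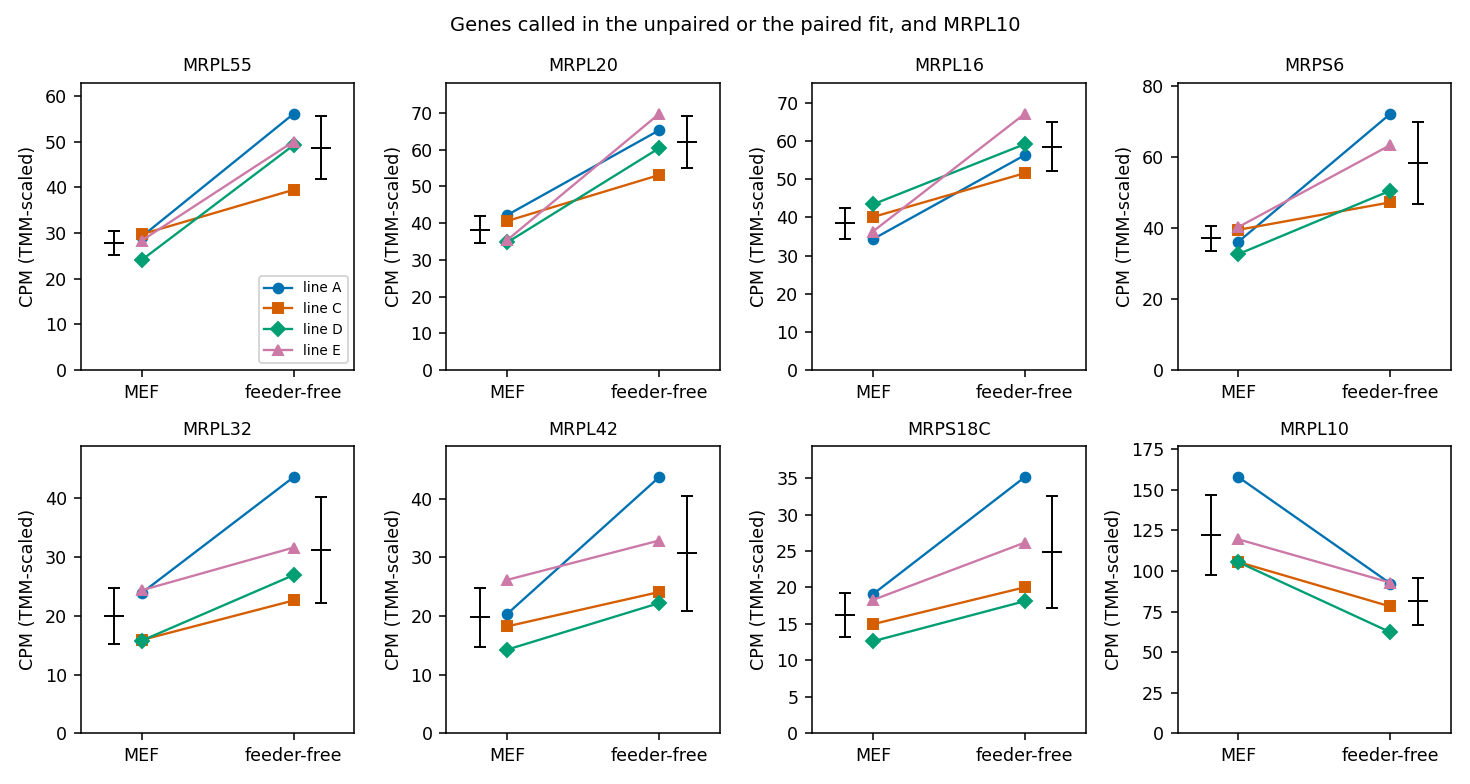
CPM (TMM-scaled, vertical axes from 0) of the 7 genes called higher in the unpaired or the paired fit and of MRPL10; lines join the libraries of one bESC line and black marks give mean ± SD of 4 libraries. The 7 genes go up in each line, steepest in line A for MRPS6, MRPL32, MRPL42 and MRPS18C, and MRPL10 goes down in each line.

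MRPL10 went the other way. It codes for the protein that anchors the stalk of the large subunit, to which translation factors bind. MRPL10, on chromosome 19 from 38631957 to 38637781, was at 158, 106, 105 and 120 CPM on MEF and at 92.3, 78.1, 62.3 and 92.8 CPM in feeder-free conditions. All feeder-free libraries lay below all MEF libraries, and the log2 ratio was -0.77, -0.43, -0.76 and -0.36 in lines A, C, D and E. The unpaired test did not call it (log2 -0.59 ± 0.18 SE, edgeR adjusted p = 0.103), and with the replicate block it passed on the adjusted P-value (log2 -0.58 ± 0.12 SE, edgeR adjusted p = 0.0118) just short of the fold change threshold. MRPL37, of a large subunit protein found only in mitochondria, was the other gene below 0 in all 4 lines, but by far less (log2 -0.06 ± 0.12 SE, edgeR adjusted p = 0.826).

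MRPL12 codes for the protein that MRPL10 holds in the stalk, in several copies. It was at 50.5, 58.0, 53.6 and 42.7 CPM on MEF and at 58.2, 68.9, 84.7 and 77.3 CPM in feeder-free conditions, without overlap. Its log2 fold change was 0.50 ± 0.15 (SE, edgeR adjusted p = 0.0968) unpaired and passed the adjusted P-value with the replicate block (log2 0.49 ± 0.14 SE, edgeR adjusted p = 0.0374). The neighbouring proteins of the stalk thus had estimates of opposite sign. The ratio of MRPL12 to MRPL10 CPM was 0.320, 0.549, 0.508 and 0.357 on MEF and 0.630, 0.882, 1.36 and 0.833 in feeder-free conditions, a pair chosen after its values were seen and given without a test.

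MRPS18A, MRPS18B and MRPS18C descend from one bacterial protein of the small subunit, but the product of MRPS18A sits in the large subunit and is counted here with the mitochondria-specific proteins. Their unpaired log2 fold changes were 0.37 ± 0.10 for MRPS18A, 0.18 ± 0.15 for MRPS18B and 0.61 ± 0.23 for MRPS18C (SE), none of them called. MRPS18A was the steadiest, at 32.2, 32.2, 28.5 and 31.8 CPM on MEF and 40.1, 39.3, 41.0 and 41.2 CPM in feeder-free conditions (edgeR adjusted p = 0.0784, and just above the threshold with the block). MRPS18B differed in direction between lines, with a log2 ratio of -0.21 in A, 0.05 in C, 0.34 in D and 0.46 in E.

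Members with roles apart from the body of the ribosome were not called. MRPL58, a peptidyl-tRNA hydrolase that became part of the large subunit and frees stalled ribosomes, had a log2 fold change of 0.30 ± 0.20 (SE, edgeR adjusted p = 0.413). MRPS30, a large subunit protein despite its symbol, had 0.18 ± 0.11 (SE, edgeR adjusted p = 0.408). The estimates nearest to 0 were those of MRPS10 (0.01 ± 0.16), MRPL2 (-0.01 ± 0.11) and MRPS21 (-0.02 ± 0.22, SE). MRPL2, which overlaps KLC4 in the annotation, codes for one of the proteins closest to the catalytic centre. It was at 92.8, 83.9, 72.8 and 86.3 CPM on MEF and 84.9, 81.3, 75.3 and 91.2 CPM in feeder-free conditions.

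The subunits and classes of protein had similar medians. The median log2 fold change was 0.29 over 51 large subunit genes and 0.33 over 26 small subunit genes. It was 0.34 over 47 genes counted as having a bacterial counterpart, with MRPS18B placed among them. It was 0.23 over 30 counted as found only in mitochondria, with MRPS18A placed among them. The 3 genes called unpaired were all of the former class, as were 14 of the 19 that passed the adjusted P-value with the block. That class made up 47 of the 77 genes tested. The summed CPM of the small subunit had a mean of 1155 ± 50.5 on MEF and 1409 ± 126 in feeder-free conditions, without overlap, whereas that of the large subunit was 2604 ± 333 and 2947 ± 392, with overlap (SD, n = 4). The ratio of large to small subunit sums was 2.35, 2.12, 2.03 and 2.51 on MEF and 2.21, 2.04, 1.97 and 2.13 in feeder-free conditions, lower in 4 of 4 lines but with overlapping groups. Without MRPL10 and MRPL45, left out after their values were seen, it was lower in 3 of 4 lines, with means of 1.97 ± 0.13 and 1.92 ± 0.06 (SD).

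Lines differed more than conditions for some genes. The highest library was typically 1.44 times the lowest on MEF and 1.46 times in feeder-free conditions, as the median over the 77 genes, against 1.64 and 1.62 over all genes tested. On MEF the ratio exceeded 2 for 6 of the 77 genes, against 5370 of all 15744 genes tested. In feeder-free conditions it did so for 11, against 5144. The ratio exceeded 2 in both conditions for 6 genes (MRPL33, MRPL36, MRPL39, MRPL45, MRPL50 and MRPS24, chosen after their values were seen, except MRPL45). MRPL45, whose product helps hold the ribosome at the inner membrane, was at 234, 122, 122 and 316 CPM on MEF and at 238, 119, 92.2 and 176 CPM in feeder-free conditions, high in lines A and E in both. Its log2 fold change was -0.34 ± 0.38 (SE, edgeR adjusted p = 0.654), and it overlaps the pseudogene POMGNT2P. MRPL50, of a mitochondria-specific large subunit protein, was at 35.8, 17.5, 16.1 and 56.7 CPM on MEF and at 49.7, 18.9, 19.5 and 31.2 CPM in feeder-free conditions. Its ratio was above 1 in lines A, C and D and below 1 in line E, and the log2 fold change was -0.08 ± 0.45 (SE, edgeR adjusted p = 0.946). Within feeder-free conditions line A was the highest library for 40 of the 77 genes and line C for 0, and within MEF line D was the lowest for 41. The matching shares over all genes are not given here. Nuclear respiratory chain subunits and cytosolic ribosomal proteins likewise had their highest feeder-free sum in line A and their lowest MEF sum in line D. For markers of pluripotent cells and fibroblasts, line A had the lowest feeder-free sum and line D the highest MEF sum.

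**Figure D4:**
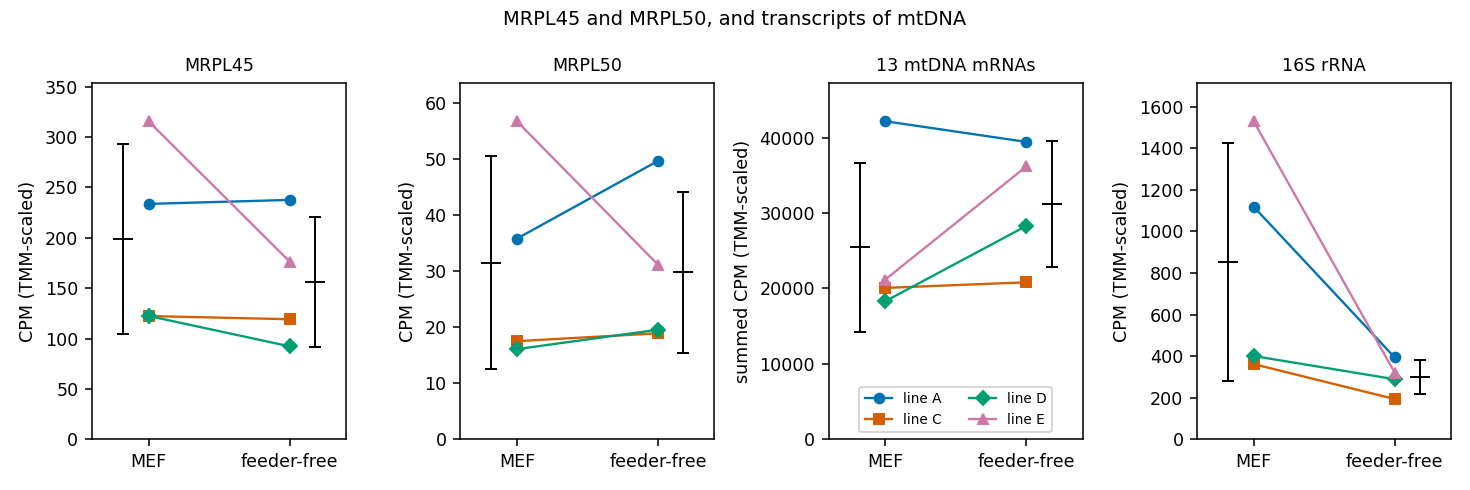
CPM (TMM-scaled, vertical axes from 0) of MRPL45 and MRPL50, summed CPM of the 13 mRNAs of mtDNA and CPM of the 16S rRNA, with lines joining the libraries of one bESC line and black marks for mean ± SD of 4 libraries. MRPL45 is high in lines A and E in both conditions, MRPL50 rises in line A and drops in line E, and the 16S rRNA drops in each line.

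Gene span and position bear on how well these counts are known. The genes were short, with a median span of 7060.5 bp against 17235 bp for all protein-coding genes. With an offset for gene span in each library, the median of the 77 log2 fold changes was 0.23 unpaired, MRPL55 and MRPL20 were called without pairing, and MRPL16 was not (edgeR adjusted p = 0.0810). With both the span correction and the replicate block, 12 genes were higher (against 7.49 percent of all genes) and 1, MRPL10, lower (against 7.27 percent) on the adjusted P-value. In the annotation 23 of the 78 genes (29.5 percent) overlapped another gene, against 33.5 percent of protein-coding genes. Whether counting used strand is not given in the sources used here, so the counts of these genes are less certain. Of the 7 genes called in either fit, 4 were among them. MRPL55 overlapped GUK1 (log2 fold change 0.09), MRPL16 overlapped STX3 (-0.20), MRPS6 overlapped SLC5A3 (-0.86, edgeR adjusted p = 0.112) and MRPS18C overlapped ABRAXAS1 (0.25), none of these partners being called. Counted separately, 32 genes, or 41.0 percent against 20.5 percent of protein-coding genes, had a protein-coding neighbour within 1000 bp that did not overlap them. Of these neighbours 35 were tested and lay outside the MRP series, and their median was 0.03 on the log2 scale (20 positive, 15 negative), beside 0.29 for the 32 genes. The neighbour of MRPL2, CUL7, was the only one called, and it was lower (-0.63). MRPS11 and MRPL46 were each other's neighbours.

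Other proteins of the mitochondrial ribosome have names outside the MRP series, and those measured here lay in the same range. DAP3, PTCD3, AURKAIP1, CHCHD1 and GADD45GIP1 had log2 fold changes of 0.17 (DAP3) to 0.64 (AURKAIP1), with a median of 0.29, and 0 of the 5 were called unpaired. AURKAIP1 had an edgeR adjusted p = 0.0531, and was called higher with the replicate block (edgeR adjusted p = 0.0203). The 13 factors of mitochondrial translation had a median of 0.12, from -0.40 for OXA1L, the insertase of the inner membrane, to 0.56 for GFM2, which recycles ribosomes, with 0 called. The 21 genes of ribosome assembly and rRNA modification had a median of 0.18 with 0 called, from -0.35 for TRMT61B, a tRNA and rRNA methyltransferase, to 0.50 for MTERF3, of the mitochondrial transcription termination factor family. The 14 genes of mtDNA transcription, maintenance and RNA processing had a median of 0.14 with 0 called, from -0.35 for TWNK, the mtDNA helicase, to 0.54 for TFB2M, a transcription initiation factor. The 20 mitochondrial tRNA synthetases had a median of -0.05, up to 0.25 for LARS2, and 1 of them, PARS2, the prolyl-tRNA synthetase, was called lower (log2 -0.67 ± 0.12 SE, edgeR adjusted p = 0.0373). Counts of genes higher in all 4 lines were 3 of 5 for the ribosomal proteins under other names, 4 of 13 for translation factors, 8 of 21 for assembly, 6 of 14 for mtDNA expression and 3 of 20 for the synthetases. Over all genes tested the share was 20.2 percent.

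The 9 regulators of mitochondrial biogenesis had a median of -0.19 with 0 called unpaired, from PPARGC1A, a coactivator (-1.48 ± 0.41 SE, edgeR adjusted p = 0.0816, and 0.0486 with the block, at most 1.49 CPM in any library), to MYC (0.91 ± 0.34 SE, edgeR adjusted p = 0.162, and 0.0455 with the block). With the replicate block 1 of the 9 was called lower (PPARGC1A) and 1 higher (MYC), against 4.53 and 5.52 percent of all genes tested. The 77 nuclear subunits of the respiratory chain and ATP synthase had a median of 0.23, with 68 above 0. In all 4 lines 37 of them were higher, against 20.2 percent of all genes tested. The lowest was NDUFV1 (-0.28), and 1 was called higher, NDUFS3 of complex I (log2 0.68 ± 0.14 SE, edgeR adjusted p = 0.0495). With the replicate block 3 of the 77 were called higher, against 5.52 percent of all genes tested. They were NDUFS3 and the complex III subunits UQCRB and UQCRQ (edgeR adjusted p = 0.0149, 0.00804 and 0.0120). On the adjusted P-value alone 13 of the 77 were higher with the block, against 7.67 percent of all genes. UQCRB and UQCRQ are named here after their values were seen. The 77 tested proteins of the cytosolic ribosome had a median of 0.14, with 64 above 0 and 0 called. In all 4 lines 12 of them were higher, against the same 20.2 percent. Their log2 fold changes ran from -0.15 for RPSA to 0.65 for RPS4Y1, annotated on chromosome 23. RPS4Y1 was the only one called with the replicate block (log2 0.63, edgeR adjusted p = 0.0129). With the offset for span, the medians were 0.14 for the respiratory chain and 0.03 for the cytosolic ribosome.

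**Figure D5:**
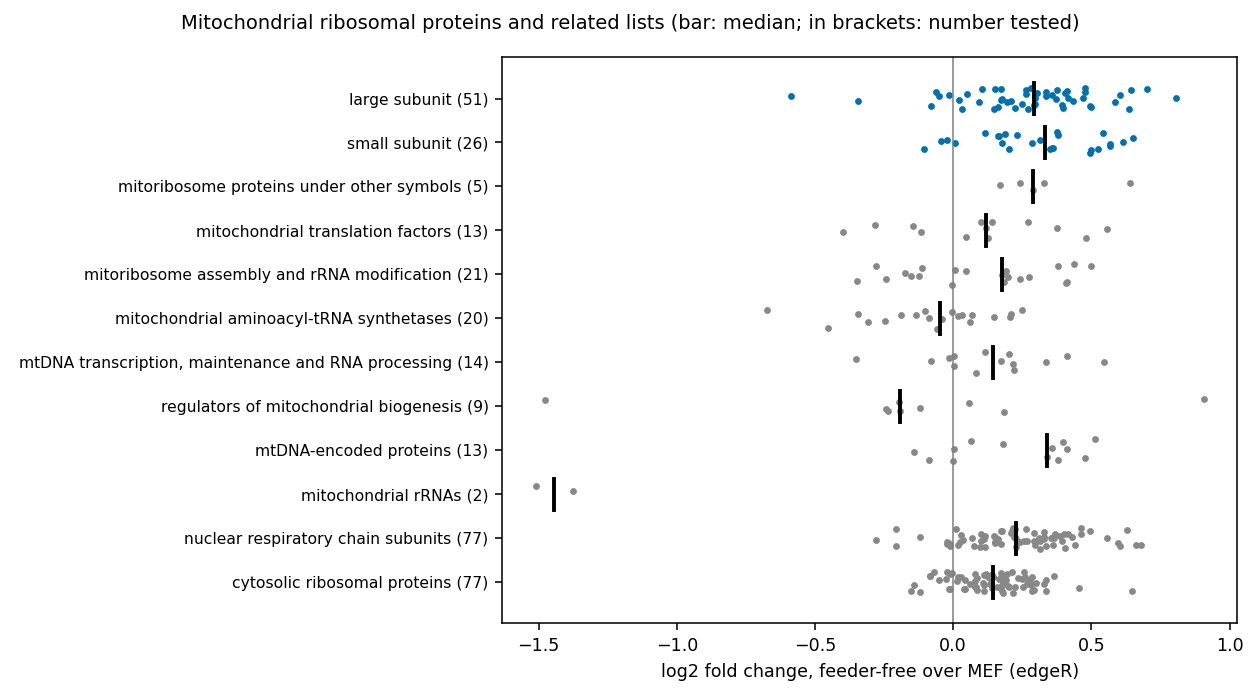
Unpaired edgeR log2 fold change of feeder-free over MEF for the mitochondrial ribosomal protein genes of each subunit (blue) and for the lists of related genes (grey), 1 point per gene with the number tested in brackets and the median as a black bar. The medians of both subunits lie at 0.29 and 0.33, that of the mitochondrial tRNA synthetases at -0.05, and the 2 mitochondrial rRNAs lie below -1.3.

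The RNAs that these proteins work with are encoded in mtDNA. Its 13 mRNAs had a median log2 fold change of 0.34, with 10 above 0 and 0 called, from -0.14 for ND5 to 0.51 for ATP6, and of the 13 only ND1 passed the adjusted P-value with the replicate block (log2 0.55, edgeR adjusted p = 0.0441). Counts on mtDNA genes made up 4.11, 2.09, 1.91 and 2.25 percent of the total on MEF and 4.01, 2.18, 2.87 and 3.73 percent in feeder-free conditions, with means of 2.59 ± 1.02 and 3.20 ± 0.83 percent (SD, n = 4, p = 0.400 by a two-sided exact permutation test). That permutation test took no account of the pairing by line, and the smallest p it can give here is 0.0286. The rRNAs were lower in feeder-free conditions in each line. The 16S rRNA of the large subunit was at 1118, 362, 401 and 1529 CPM on MEF and at 394, 194, 289 and 320 CPM in feeder-free conditions, where line A lay above line C on MEF. The 12S rRNA of the small subunit was at 317, 152, 134 and 348 CPM on MEF and at 124, 64.1, 91.0 and 87.3 CPM in feeder-free conditions, without overlap. Neither was called unpaired (log2 -1.51 ± 0.46 and -1.38 ± 0.34 SE, edgeR adjusted p = 0.104 and 0.0621), and both were called lower with the replicate block (edgeR adjusted p = 0.00954 and 0.00398). How rRNA was kept out of the libraries is not given in the sources used here.

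MEF are a second source of RNA on one side of the comparison. Of 22 fibroblast markers 20 were tested and 0 were called unpaired, with a median of -0.04 on the log2 scale, from COL1A2 (-4.08) to COL3A1 (2.61). Their summed level was 1551 to 1901 CPM on MEF and 1229 to 2861 CPM in feeder-free conditions. COL1A2 (0.68 to 4.65 CPM on MEF, 0 to 0.414 CPM in feeder-free conditions) and PRRX1 were called lower with the replicate block, and COL3A1 and POSTN higher. FAP and TWIST2 were at 0 in all feeder-free libraries and at most at 0.661 CPM on MEF. Their part in the values of the mitochondrial ribosomal protein genes and of the rRNAs was not tested.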

How the data were processed

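RNA-seq of 4 bESC lines, each on MEF and in feeder-free conditions in 5% O2, was analysed (8 libraries, 150 bp paired-end reads, batch 1 throughout). The authors deposited raw counts per gene, without normalization. Per the methods, Trimmomatic was used for trimming and STAR for alignment to the ARS-UCD2.0 assembly, optical duplicates (Picard) and alignments of low mapping quality (samtools) were dropped, and featureCounts gave the counts (the submitters' processing notes name Subread 1.6.2). Per the methods, reads of a pure MEF sample that aligned to the bovine genome were removed from the counts on MEF. That sample was not analysed here. Whether the deposited raw counts come from before or after this removal is not given in the sources used here. The methods name an RNeasy kit and the sample records Trizol for the RNA.

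Counts were used as deposited. Of 32640 rows, 3 genes without values were left out, and 0 sample columns were unused. Within conditions, all 12 pairs of libraries differed beyond sampling noise (chi-square over degrees of freedom at least 40.8). Total counts of 44268717 to 102351560 set the counting error, and the lowest count of a tested member in any library was 259 (MRPS24). Genes were tested with edgeR 4.0.16 in R 4.3.3 (filterByExpr, TMM, glmQLFit, glmQLFTest, Benjamini-Hochberg over 15744 genes). CPM were computed with TMM-scaled library sizes, and a prior count of 2 was added for log2 ratios per line. The SE of a log2 fold change is its size over the square root of F. The fit was tested on simulated counts.

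The line letter pairs the libraries: deviations from the condition mean correlated at 0.582, 0.557, 0.664 and 0.421 within lines A, C, D and E, and at -0.523 to 0.249 between lines. Alternatives were other scalings, filters and tests (DESeq2 1.42.0, limma-voom 3.58.1), the replicate block, per-library offsets for gene span, and each library left out.

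The members, the lists and the alternatives were chosen with earlier results of these data known. Members were named if called, if among the 5 largest rises or falls with 1 sign in all 4 lines (only 2 fell), if called with the replicate block, if among the 3 closest to 0, for a role apart from the rest, or if not tested. Naming by level per length was planned, but the annotation used here gives gene spans and no exon lengths or strand. Genes of mtDNA were named through their locus tags.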

Additional observations from a re-analysis of the deposited data

Results flagged for a closer look

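Within groups of 4 libraries, 5 of 64 groups of values had 1 library farther from the rest than Dixon's 95% critical value allows, and chance gives about 1 in 20. On MEF, the share of counts on mtDNA genes was 4.11 percent in line A and 1.91 to 2.25 percent in lines C, D and E. The share on the 13 mRNAs alone was 3.97 percent in line A and 1.85 to 2.07 percent in the rest. MRPS18A was at 28.5 CPM in the MEF library of line D, against 31.8 to 32.2 CPM in the others. The feeder-free library of line D held 102351560 counts, against 49671478 to 51320214, and its pluripotent markers summed to 5299 CPM, against 4679 to 4730 CPM.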

How the results depend on the processing

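The median log2 fold change of the 77 genes stayed positive and within the spread between lines in all alternatives run, from 0.25 to 0.35 with 1 library left out. Counts moved more. Genes called higher were 3 in the unpaired fit, 5 by DESeq2 or without the fold threshold, 7 with the replicate block, 6 with the block and span offsets, 4, 10, 3 and 9 with the block without line A, C, D or E (added after seeing the data), and 0 to 3 with 1 library left out. Genes called lower were 0, and 1 (MRPL10) with the block and span offsets or the block without line C or E. On the adjusted P-value alone 5 were higher, 2 without the low count filter, by limma-voom or with span offsets, 8 by the likelihood ratio test, 12 by DESeq2, 19 with the block, 12 with block and offsets, 11, 11, 3 and 16 with the block without line A, C, D or E, and 0 to 3 with 1 library left out. On the same criterion 0 were lower, and 1 by DESeq2, with the block, with block and offsets, and with the block without line A, C or E. Over all genes, 114 were called higher and 158 lower unpaired, 73 and 97 without the filter, 199 higher with at least 10 counts in every library, 91 lower without scaling, 448 and 389 by the likelihood ratio test, 695 and 517 by DESeq2, 869 and 713 with the block, 836 and 645 with block and offsets, 918 and 733, 561 and 496, 376 and 366, and 662 and 497 with the block without line A, C, D or E, and 0 to 259 higher and 0 to 231 lower with 1 library left out. Summed CPM without TMM scaling or without mtDNA counts moved by less than the spread in each of 8 libraries. The difference in mtDNA share was 0.335 to 1.11 percentage points with 1 library left out (lowest exact permutation p = 0.0857, added after seeing the data). No alternative reversed a named gene that was called. A fit with 1 library left out compares 3 with 4 and leaves fewer degrees of freedom.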

Other observations

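The 2 mitochondrial rRNAs together had 0.0340, 0.0256, 0.0292 and 0.0886 counts per count on the 13 mRNAs of mtDNA in lines A, C, D and E on MEF, and 0.0131, 0.0124, 0.0134 and 0.0113 in feeder-free conditions. The feeder-free libraries all lay below the MEF libraries. The ratio was chosen after its values were seen and is given without a test.

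The genes lay on 27 chromosomes, most often on chromosome 11 with 9 of 78 (11.5 percent, against 4.37 percent of protein-coding genes) and chromosome 19 with 8 (10.3 percent, against 5.57 percent).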
